A study of Mus musculus with 48 samples.

Results

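Marker genes of liver sinusoidal endothelial cells, 10 in all, were followed in liver RNA of mice given corticosterone, an inhibitor of adipose triglyceride lipase, both or neither. The genes were Mrc1, Kdr, Stab1, Stab2, Lyve1, Clec4g, Fcgr2b, Oit3, Pecam1 and Eng, chosen by name, and all 10 were found among the 14251 genes of the count table. For 2 weeks male C57BL6J mice drank corticosterone (100 ug/ml), the glucocorticoid hormone that rodents chiefly make, or its vehicle (1% ethanol). They ate a control diet or food (Teklad 8640) holding atglistatin (571 mg/kg), a small molecule that blocks the enzyme starting the breakdown of stored triglyceride. The labels give no age and no genetic change for any group. The groups held 10 livers (vehicle, control diet), 10 livers (vehicle, atglistatin), 14 livers (corticosterone, control diet) and 14 livers (corticosterone, atglistatin). Of the corticosterone control-diet mice, 9 carry the label diabetic and 5 the label nondiabetic. On corticosterone and atglistatin, replicate 26 is also labelled diabetic, and no vehicle liver is. Corticosterone control-diet replicate 36, labelled nondiabetic, has a fed glucose value in the labels above those of the other 4 nondiabetic mice of its group and below those of all 9 diabetic ones.

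Sinusoidal endothelial cells line the capillaries of the liver lobule. They have open pores and no continuous basement membrane, and they are the main scavengers of the liver, taking up modified proteins, hyaluronan and small immune complexes through a set of endocytic receptors. Their identity is held by signals from neighbouring cells, among them vascular endothelial growth factor (VEGF) and bone morphogenetic proteins (BMP), and differs along the lobule between the portal and the central vein. The 10 genes cover these roles. Mrc1 (mannose receptor), Stab1 and Stab2 (stabilins), Fcgr2b (a receptor for immunoglobulin G complexes) and Lyve1 (a hyaluronan receptor) serve uptake. Clec4g is a C-type lectin, Kdr the main signalling receptor for VEGF-A, Eng (endoglin) a co-receptor for BMP and TGF-beta ligands, Pecam1 an adhesion molecule of all endothelium, and Oit3 a secreted protein for which no role is given here. Several are not restricted to this cell: macrophages also express Mrc1, Stab1, Fcgr2b and Pecam1, and lymphatic endothelium expresses Lyve1.

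On GRCm38, with the GENCODE M21 gene models, Mrc1 (ENSMUSG00000026712) lies on chr2:14229392-14332057 and Kdr (ENSMUSG00000062960) on chr5:75932827-75978458. Stab1 lies on chr14:31139013-31168641, Stab2 on chr10:86841198-87008025, Lyve1 on chr7:110850607-110863239 and Clec4g on chr8:3707064-3720651. Fcgr2b lies on chr1:170958617-170976547, Oit3 on chr10:59422958-59441778, Pecam1 on chr11:106654217-106750628 and Eng on chr2:32646595-32682669. Stab1 overlaps Nt5dc2, Eng overlaps Fpgs, and Clec4g, Fcgr2b and Stab2 overlap antisense genes. These overlapping genes lie on the strand opposite the marker. The strand setting of the counting is not given in the sources used here, so whether reads in the shared stretches were separated is not known.

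RefSeq promoter sequence (GRCm38.p6) was matched for 7 of the 10 genes, and the windows of Kdr, Mrc1 and Clec4g are shown because these genes fell with corticosterone on both diets and their windows lie outside the GENCODE gene. Fcgr2b also fell on both diets, but its window overlaps its gene model and is not printed. Each window is 200 bases, from 250 to 51 bases before the gene's start, and reads 5′ to 3′ on the gene's strand. Capitals mark matches of AGGAAG or its reverse complement CTTCCT, a hexamer of some sites bound by ETS factors, which are regulators of endothelial genes.
Kdr (chr5:75978506-75978705, minus strand): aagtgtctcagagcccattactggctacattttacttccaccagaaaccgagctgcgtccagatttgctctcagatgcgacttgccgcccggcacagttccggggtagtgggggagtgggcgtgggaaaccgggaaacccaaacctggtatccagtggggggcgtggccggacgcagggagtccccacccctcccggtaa
Mrc1 (chr2:14229164-14229363, plus strand): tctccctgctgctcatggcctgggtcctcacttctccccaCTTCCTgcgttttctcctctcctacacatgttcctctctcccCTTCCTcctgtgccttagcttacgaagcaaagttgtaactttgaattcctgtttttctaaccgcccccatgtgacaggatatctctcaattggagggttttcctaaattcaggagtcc
Clec4g (chr8:3720702-3720901, minus strand): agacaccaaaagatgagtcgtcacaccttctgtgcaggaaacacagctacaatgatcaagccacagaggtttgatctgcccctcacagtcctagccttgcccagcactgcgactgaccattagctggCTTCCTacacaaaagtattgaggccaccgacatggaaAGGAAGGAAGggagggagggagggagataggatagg
The Mrc1 window held 2 matches, at 210 and 168 bases before the start on the opposite strand. In Clec4g there were 3, of which 2 overlap in 1 run. Other sequences bound by ETS factors were not searched, and the Kdr window held no match of AGGAAG or CTTCCT. Of the windows not printed, that of Stab1 held 1 match, at 116 bases before the start, and those of Stab2, Fcgr2b and Eng held none. Over 32851 promoter windows of the same length, 23.9% held this motif. AGAACA (or TGTTCT), the hexamer bound by 1 unit of the glucocorticoid receptor, was present in 13.2% of windows and matched 1 of the 7 genes, Fcgr2b, at 191 bases before the start. The full palindromic receptor site (0.00913% of windows) and the GATA motif AGATAA (8.42%), searched on both strands, matched none of the 7. A match is a run of letters, not a binding site.

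Library totals ran from 7449109 to 21175603 counts over the 48 libraries. Fkbp5, a direct glucocorticoid target used to check the labels, ran from 5.58 to 43.9 CPM (counts scaled by library size) in the vehicle livers and from 110.4 to 447 CPM in the corticosterone livers. Its rise was smaller on the atglistatin diet than on the control diet (log2 difference between the rises -1.63, edgeR adjusted p = 0.00175). The albumin gene Alb was at 49774 CPM or more in every library, and all 10 markers were counted in every library, with 69 to 1388 counts per gene and library. Exocrine pancreas RNA was present in 6 libraries, with Cpa1 above 20 CPM. Corticosterone atglistatin replicate 41 stood apart in the macrophage scavenger receptor gene Msr1 (18.1 CPM, the next at 6.5 CPM) and in Lyve1. The labels do not name batches. Where fewer endothelial cells and less RNA per cell could both lower a level, these bulk libraries cannot tell them apart.

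On the control diet, corticosterone went with lower Kdr, Mrc1, Fcgr2b and Clec4g. Of the 10 markers, 4 fell and none rose at an adjusted p of at most 0.05 (edgeR quasi-likelihood test over 12688 genes), against 44.2% of all genes called, 21.7% lower and 22.5% higher. The median log2 fold change of the markers was -0.20, beside 0.01 over all genes. With library totals as the only scaling, the median over all genes moved to -0.12, 71.4% of called genes were lower in place of 49%, and 7 markers were called, all lower. Relative to the median of all genes the markers' median was then -0.20, beside -0.21 with TMM. With limma voom 7 markers were also called, 6 lower, with Stab1 and Pecam1 added, and 1 higher, Lyve1. Without the livers labelled diabetic, and without the 6 libraries with pancreas RNA, the count was 4. The remaining 6 genes did not pass the test, and their fold changes ran from -0.21 (Stab1) to 0.57 (Lyve1) on the log2 scale.

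Kdr ran from 58.9 to 80.9 CPM (median 70.2) in the vehicle livers and from 29.4 to 46.6 CPM (median 38.9) in the corticosterone livers. The groups did not overlap, which was true of 3.43% of all genes in the lower direction. Its mean was 70.4 ± 7.72 CPM (SD, n = 10) against 38.3 ± 4.96 (n = 14). That is 1.84-fold lower, a log2 fold change of -0.88 ± 0.09 (SE, edgeR adjusted p = 5.69e-11).

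Mrc1 ran from 38.0 to 53.6 CPM (median 47.6) under vehicle and from 21.6 to 39.5 CPM (median 27.4) under corticosterone. All 14 corticosterone livers lay below the vehicle mean and 12 lay below the lowest vehicle liver. The log2 fold change was -0.65 ± 0.09 (edgeR adjusted p = 7.44e-08).

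Fcgr2b, the inhibitory Fc receptor, ran from 17.2 to 33.6 CPM (median 23.4) under vehicle and from 11.6 to 21.2 CPM (median 17.1) under corticosterone. All 14 treated livers lay below the vehicle mean, 7 of them below the lowest vehicle liver. Its log2 fold change was -0.51 ± 0.11 (adjusted p = 9.75e-05).

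Clec4g fell from a mean of 55.4 ± 5.94 CPM to 46.8 ± 8.29 CPM. Its vehicle livers ran from 47.2 to 65.2 CPM (median 55.9) and its corticosterone livers from 33.4 to 63.6 CPM (median 44.4). Of the 14 treated livers, 12 lay below the vehicle mean and 8 below the lowest vehicle liver. The log2 fold change was -0.24 ± 0.08 (adjusted p = 0.0104).

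The stabilins did not pass on this diet. Stab1 ran from 9.35 to 16.6 CPM (median 12.4) under vehicle and from 7.82 to 16.2 CPM (median 10.5) under corticosterone, a log2 fold change of -0.21 with a 95% interval of -0.40 to -0.01 (adjusted p = 0.0789). It passed without vehicle control-diet replicate 2 or 12 or corticosterone control-diet replicate 32 or 33 (-0.24 to -0.26), and with voom (-0.28, adjusted p = 0.01). For Stab2 the medians were 17.95 and 17.0 CPM and the difference -0.12 (interval -0.32 to 0.08). In both genes the groups overlapped.

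Lyve1 differed in the other direction and did not pass in the edgeR fit. Vehicle livers ran from 9.74 to 36.4 CPM (median 20.1) and corticosterone livers from 19.5 to 67.1 CPM (median 32.9), with 11 of 14 above the vehicle mean. The log2 fold change was 0.57 ± 0.25 (interval 0.07 to 1.07, adjusted p = 0.0556), and it passed without vehicle control-diet replicate 3, 9 or 11 or corticosterone control-diet replicate 29, 46 or 50 (0.60 to 0.66). It also passed as higher with voom (0.53, adjusted p = 0.0144) and with only the groups compared (0.55, adjusted p = 0.0419). Its spread was the widest of the 10 genes in each of the 4 groups, with a coefficient of variation of 38.9% to 61.8%.

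The other 3 markers did not pass either. Oit3 had medians of 18.2 and 15.6 CPM (difference -0.14, interval -0.33 to 0.04) and Pecam1 of 9.89 and 8.55 CPM (difference -0.19, interval -0.36 to -0.02, adjusted p = 0.0566). Pecam1 passed in 8 of 24 fits that left out 1 library (adjusted p from 0.0166), namely vehicle replicates 2, 12 and 15 and corticosterone replicates 27, 29, 32, 33 and 34. It also passed under 5 of 8 other settings (adjusted p from 0.00866). Eng had medians of 16.2 and 16.4 CPM. Its interval of -0.19 to 0.24 does not reach the fall of Kdr.

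**Figure D1:**
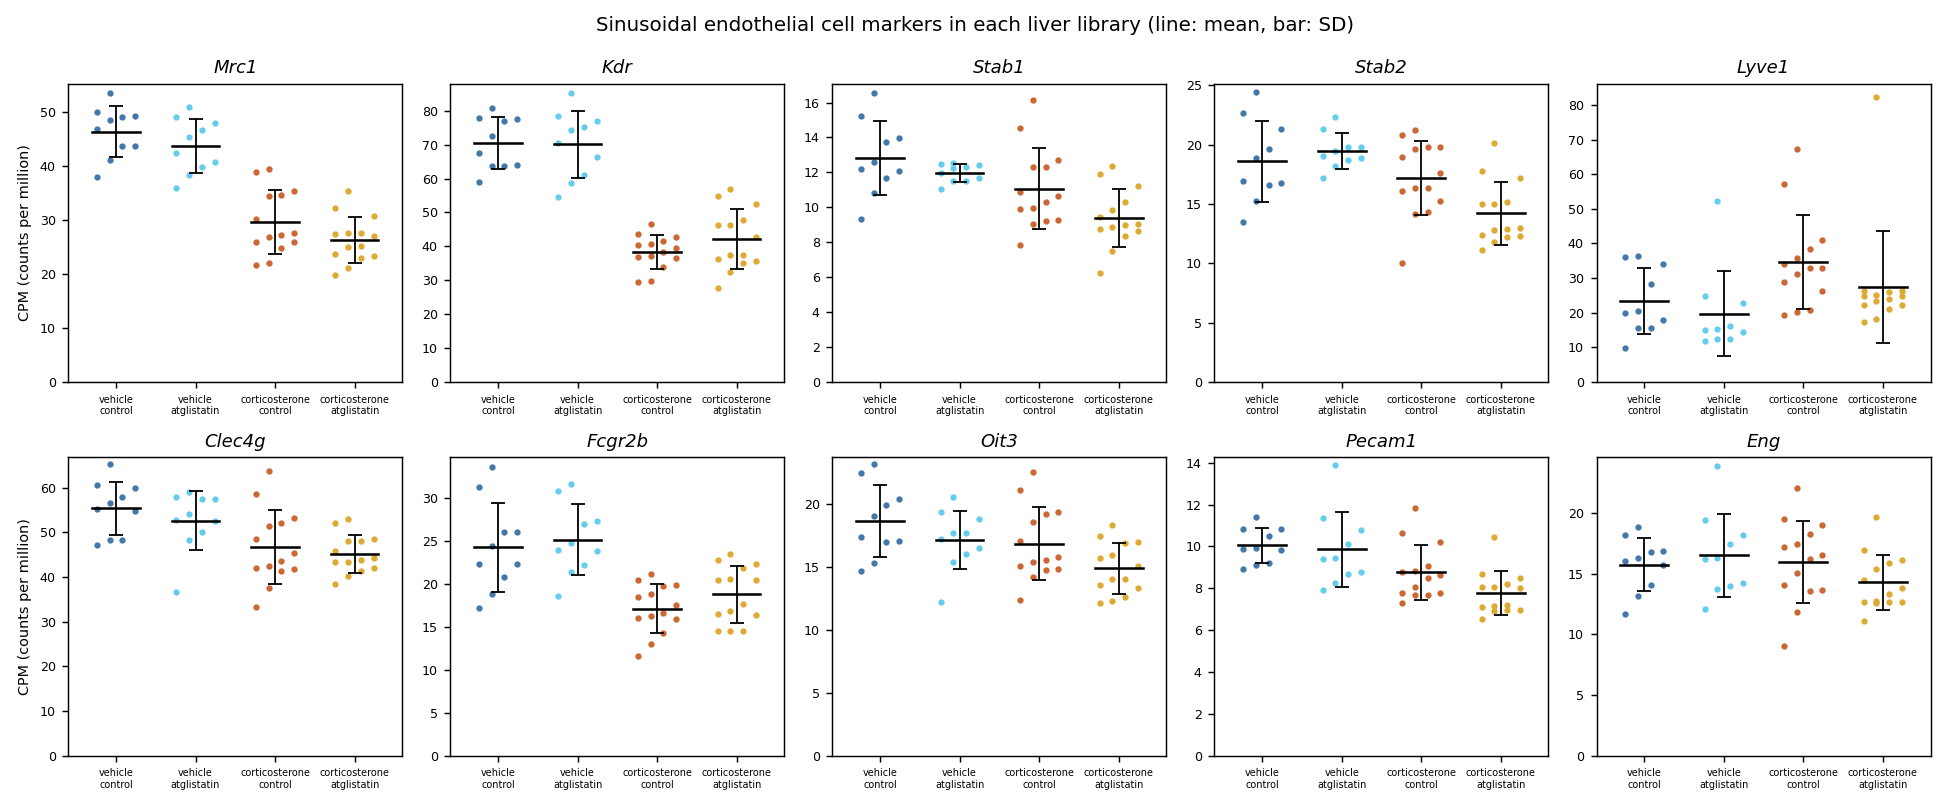
CPM of each of the 10 markers (y axes, from 0) in every liver library by group (x axis), with points for libraries, a line for the mean and a bar for the SD. Kdr and Mrc1 lie lower in both corticosterone groups, and single livers stand high in Lyve1.

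On the atglistatin diet, corticosterone went with lower levels of 7 of the 10 markers. Mrc1, Kdr, Stab1, Stab2, Clec4g, Fcgr2b and Pecam1 fell and none rose, against 36.7% of all genes called, 17.7% lower and 19% higher. The median log2 fold change was -0.35, beside 0.02 over all genes. With library totals 65.7% of called genes were lower in place of 48.2%, and 8 markers were. With voom 8 markers were lower and 1, Lyve1, was higher. Without replicate 41 the count was 7, without the livers labelled diabetic 7, and without the libraries with pancreas RNA 6. The markers that did not pass were Oit3, Eng and Lyve1.

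Mrc1 ran from 35.9 to 50.9 CPM (median 43.9) under vehicle and from 19.9 to 35.4 CPM (median 26.2) under corticosterone. The groups did not overlap, as was true of 1.46% of all genes in the lower direction. The log2 fold change was -0.73 ± 0.09 (edgeR adjusted p = 8.02e-09).

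Kdr ran from 54.4 to 85.1 CPM (median 72.4) under vehicle and from 27.7 to 57.0 CPM (median 40.2) under corticosterone. The ranges touched only at their ends, since 12 of 14 corticosterone livers lay below the lowest vehicle liver. Its log2 fold change was -0.73 ± 0.09 (adjusted p = 9.97e-09), a 1.66-fold lower level.

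Stab2, a receptor that clears hyaluronan from blood, ran from 17.2 to 22.4 CPM (median 19.2) under vehicle and from 11.1 to 20.2 CPM (median 12.9) under corticosterone. Here 13 of 14 livers lay below the vehicle mean, and the log2 fold change was -0.45 ± 0.10 (adjusted p = 0.000274). Stab1 fell by 0.35 on the log2 scale (SE 0.10, adjusted p = 0.00372), from a median of 12.1 to 9.03 CPM. The vehicle atglistatin livers were close together in Stab1, between 11.04 and 12.5 CPM, and 11 of 14 corticosterone livers lay below all of them.

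Pecam1 fell from a median of 9.41 to 7.61 CPM (log2 fold change -0.34 ± 0.08, adjusted p = 0.000778) and Fcgr2b from 24.3 to 19.1 CPM (-0.42 ± 0.11, adjusted p = 0.00115). Clec4g had medians of 53.5 and 44.1 CPM (-0.22 ± 0.08, adjusted p = 0.026). All 3 overlapped between the groups. The call of Clec4g was lost without vehicle atglistatin replicate 7 (adjusted p = 0.0508) and without the libraries with pancreas RNA (adjusted p = 0.0719).

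Lyve1 had medians of 15.1 and 24.4 CPM and a difference of 0.47 (interval -0.02 to 0.97, adjusted p = 0.129), with 12 of 14 corticosterone livers above the vehicle mean. It rested on 2 livers in opposite directions. Without vehicle atglistatin replicate 14, which stood at 52.2 CPM while the next was at 25 CPM, the difference was 0.77 (adjusted p = 0.00854), and it passed. Without corticosterone atglistatin replicate 41, at 82.4 CPM, it was 0.23 (adjusted p = 0.429). With voom, which weights the libraries, it passed at 0.49 (adjusted p = 0.0228). Oit3 differed by -0.20 (interval -0.38 to -0.02, adjusted p = 0.0691). It passed under 6 of 8 other settings (adjusted p from 0.0291) and without vehicle atglistatin replicate 5 or 13 or corticosterone atglistatin replicate 40 or 42. Eng differed by -0.21 (interval -0.43 to 0.0016, adjusted p = 0.114) and passed without vehicle atglistatin replicate 5 (-0.28, adjusted p = 0.036).

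**Figure D2:**
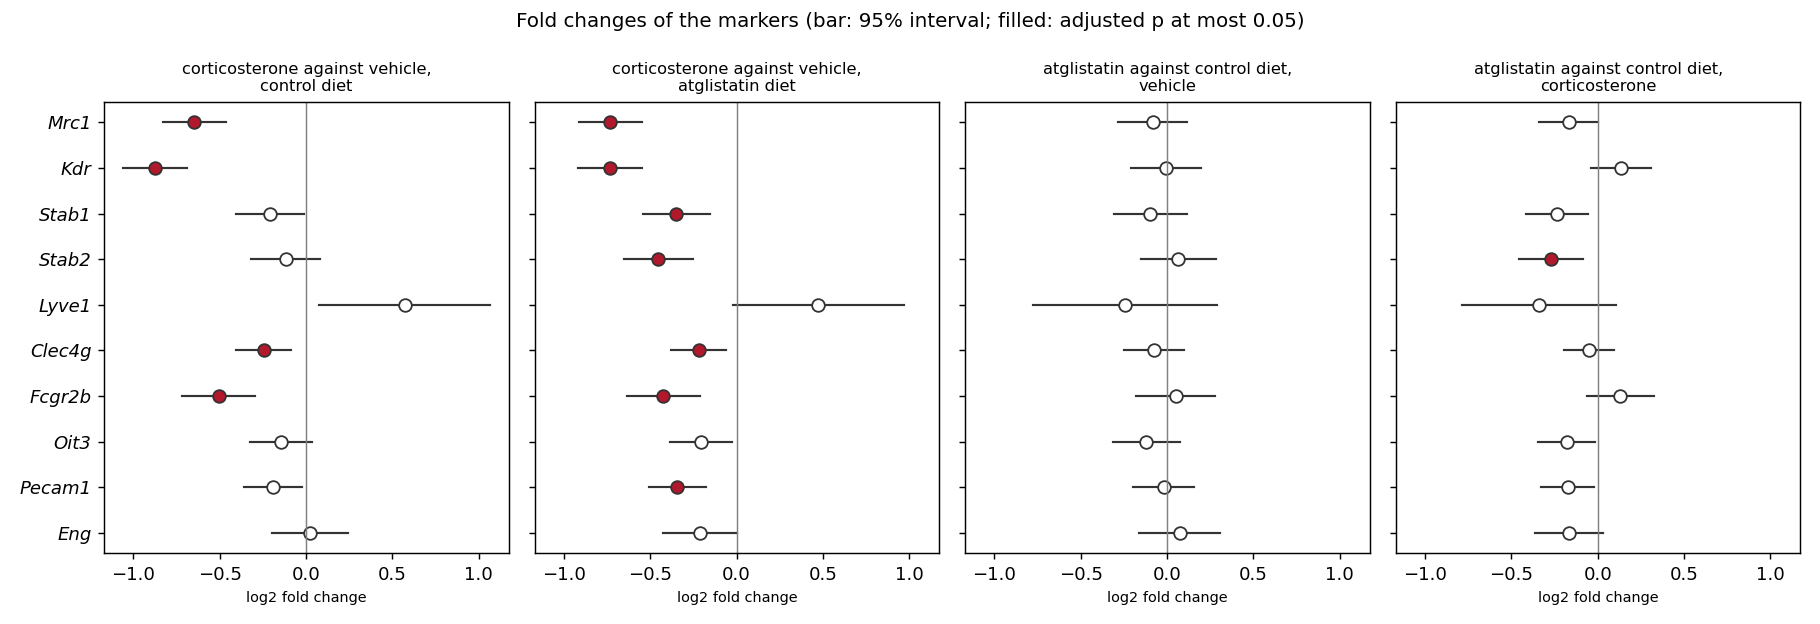
Log2 fold change (x axis) of each marker (y axis) in 4 contrasts, with 95% intervals as bars. Filled points passed an adjusted p of at most 0.05: 4 markers for corticosterone on the control diet, 7 on the atglistatin diet, none for atglistatin under vehicle and 1, Stab2, for atglistatin under corticosterone.

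With atglistatin and no corticosterone, none of the 10 markers passed (edgeR), where 3.13% of all genes were called. Of the called genes 53.1% were lower, or 24.1% with library totals. None of the markers had an unadjusted p under 0.05, where 16.1% of all genes did, and DESeq2 and limma voom also called 0. The intervals limit any change: for Kdr the log2 fold change was -0.01 with an interval of -0.21 to 0.20, and for Mrc1 -0.08 with an interval of -0.28 to 0.11. Lyve1 was the least certain, at -0.24 with an interval of -0.77 to 0.29.

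Under corticosterone, atglistatin went with a lower level of 1 marker, Stab2, where 11.7% of all genes were called, 6.47% lower and 5.19% higher. Stab2 ran from 10.04 to 21.3 CPM (median 17.0) on the control diet and from 11.1 to 20.2 CPM (median 12.9) on atglistatin, and 11 of 14 atglistatin livers lay below the control-diet mean. The ranges overlap throughout. Of all called genes 55.5% were lower, or 14.6% with library totals, which moved the median of all genes to 0.12. With that scaling Stab2 did not pass (-0.16) and Kdr passed as higher (0.26, adjusted p = 0.0251). The Stab2 log2 fold change was -0.27 ± 0.09 (edgeR adjusted p = 0.0448), and the call was lost in 15 of the 28 fits that left out 1 library (adjusted p up to 0.085). These left out corticosterone atglistatin replicates 13, 14, 17, 26, 38, 41, 47 or 48 or corticosterone control-diet replicates 27, 32, 33, 34, 35, 36 or 37. It was also lost with only the groups compared (adjusted p = 0.0768) and without the libraries with pancreas RNA (adjusted p = 0.0527), and then 0 markers passed. With voom 4 passed, all lower, namely Stab2, Stab1 (-0.27), Lyve1 (-0.46) and Pecam1 (-0.20). Stab1 (-0.24), Oit3 (-0.18) and Pecam1 (-0.17) had unadjusted p under 0.05 and did not pass. With Stab2 these were 4 of 10 markers, where 24.5% of all genes had such a p. Without the livers labelled diabetic Stab1 differed by -0.48 (adjusted p = 0.00705) and passed. It also passed without corticosterone atglistatin replicate 24, 40 or 41 or corticosterone control-diet replicate 45, and Pecam1 passed without replicate 41 (-0.21, adjusted p = 0.0464). Kdr was 0.14 higher on the log2 scale with an interval of -0.04 to 0.31. Lyve1 differed by -0.34 (adjusted p = 0.362), and by -0.58 (adjusted p = 0.0395) without corticosterone atglistatin replicate 41.

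Whether the corticosterone response differed by diet was tested with the interaction term, which called 0 of the 10 markers (edgeR, 1.43% of all genes called; DESeq2 and limma voom also called 0). Of the called genes 50.8% had a negative term, or 28.6% with library totals. An unadjusted p under 0.05 was found for 1 of 10 markers, Stab2, and for 11.8% of all genes. The Stab2 difference was -0.33 (interval -0.62 to -0.05, adjusted p = 0.296). So the counts of 4 and 7 are not shown to differ in themselves.

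Within the corticosterone control-diet group, 0 of the 10 markers differed between the diabetic and nondiabetic labels (edgeR, 12003 genes, 0% of all genes called; DESeq2 and limma voom also called 0). Stab1 had an unadjusted p of 0.00223, with a log2 difference of -0.43 ± 0.12 and an adjusted p of 0.992. Its nondiabetic livers were at 10.6, 12.3, 12.3, 14.6 and 16.2 CPM, and the 9 diabetic livers ran from 7.82 to 12.7 CPM (median 9.90), all below the nondiabetic mean of 13.2 CPM. Oit3 (-0.28) and Pecam1 (-0.23) were the other 2 with unadjusted p under 0.05. Such a p was found for 3 of 10 markers, beside 3.73% of all genes. In the fit without any liver labelled diabetic, the 5 nondiabetic corticosterone livers differed from vehicle by 0.02 in Stab1, 0.0024 in Stab2 and 0.0038 in Oit3, and none of the 3 passed (adjusted p = 0.907, 0.991 and 0.985).

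Over all genes, 21.7% were lower and 22.5% higher on the control diet, and 17.7% lower and 19% higher on atglistatin. Among 24 other genes of sinusoidal endothelium tested, 15 fell and 1 rose on the control diet (median -0.38), and 14 fell and 1 rose on the atglistatin diet (median -0.37). Flt4, the VEGF-C receptor, fell by 1.01 on the log2 scale (SE 0.10, adjusted p = 1.4e-11) on the control diet, and Tfpi, an inhibitor of the tissue factor pathway, fell by 0.97 (SE 0.11, adjusted p = 1.08e-09). Adam23 rose by 0.53. Of 32 pan-endothelial genes, 16 fell and 1 rose on the control diet, and 22 fell and none rose on atglistatin. Cdh5, VE-cadherin, fell by 0.72 (SE 0.10) and Mmrn2, a matrix protein of endothelium, by 1.02 (SE 0.10). The pan-endothelial gene that rose was Flt1, a VEGF receptor that acts largely as a decoy (0.35 ± 0.08, adjusted p = 0.000534), named after its value was seen. Of the 15 genes of continuous and large vessels, 4 were higher and 5 lower on the control diet, where 22.5% and 21.7% of all genes were. On atglistatin 0 were higher and 4 lower, where 19% and 17.7% of all genes were (36.7% called in either direction).

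**Figure D3:**
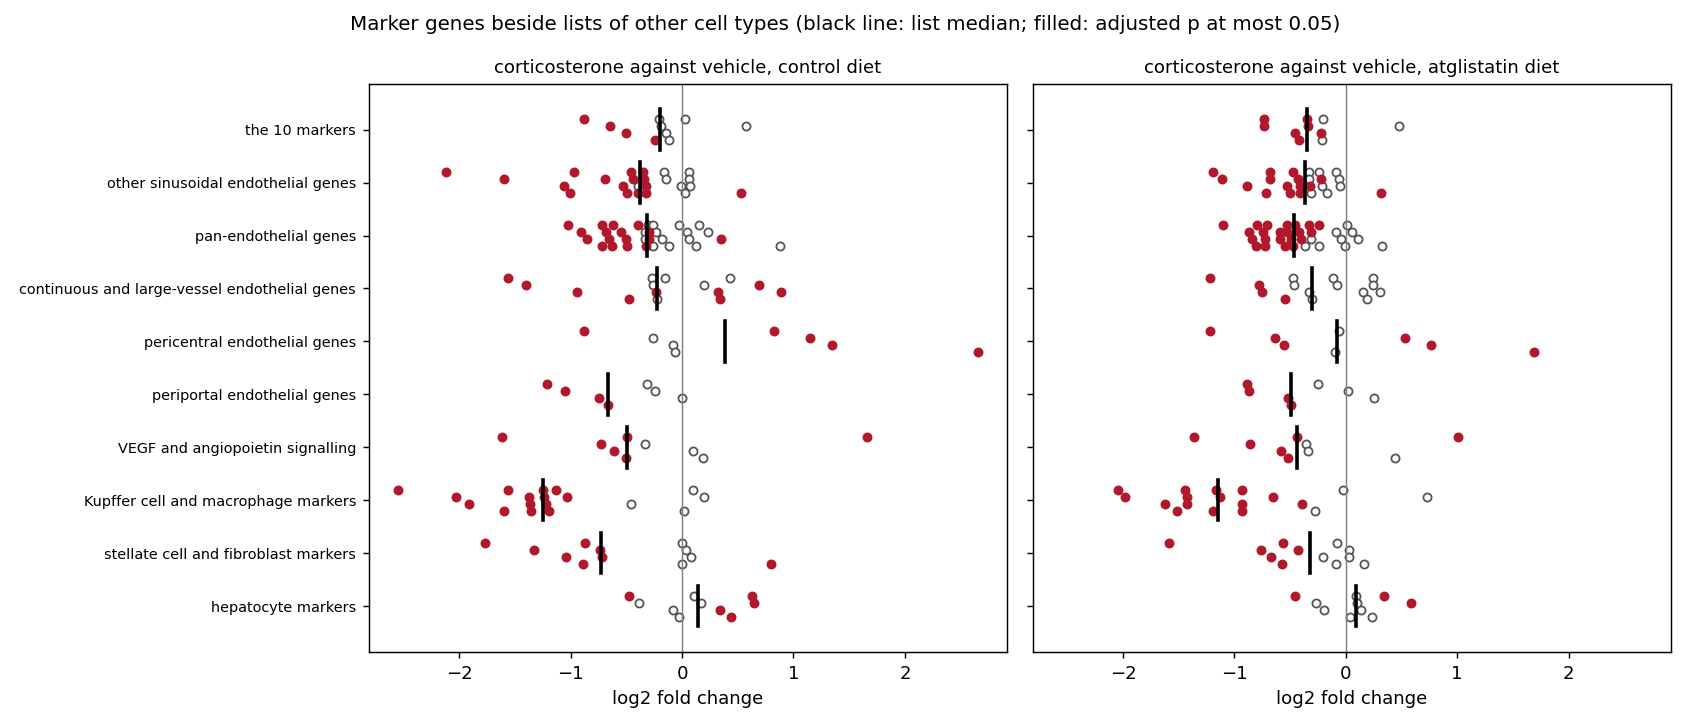
Log2 fold change (x axis) of single genes in 10 lists (y axis) for corticosterone on the control diet (left) and on atglistatin (right), with filled points past an adjusted p of at most 0.05 and a black line for the list median. The 10 markers have medians of -0.20 and -0.35.

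Of 9 genes listed around VEGF and angiopoietin signalling, in which Kdr is a receptor, 5 fell and 1 rose on each diet. Over all genes 21.7% fell and 22.5% rose on the control diet, and 17.7% fell and 19% rose on atglistatin. Nrp1, a VEGF co-receptor, ran from 91.7 to 149.7 CPM in the vehicle control-diet livers and from 26.5 to 51.8 CPM under corticosterone (log2 fold change -1.61 ± 0.13, edgeR adjusted p = 3.28e-14). These ranges did not overlap, as was true of 3.43% of all genes in the lower direction. Vegfa, the ligand of Kdr, fell by 0.50 (SE 0.15, adjusted p = 0.00599), and was named after its value was seen. Vegfb fell by 0.73 (SE 0.10). The listed gene that rose was Angptl4, an inhibitor of lipoprotein lipase and not a VEGF or angiopoietin ligand (1.66 ± 0.25). In the BMP and TGF-beta list around Eng, 3 of 17 rose and 7 fell on the control diet, beside 22.5% and 21.7% of all genes. On atglistatin 0 rose and 5 fell, beside 19% and 17.7% of all genes (36.7% called in either direction). Smad1 fell by 0.45 and Tgfbr2 rose by 0.89 on the control diet.

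Zonal endothelial genes moved in both directions. In the pericentral list 4 of 8 genes rose and 1 fell on the control diet (median 0.38), beside 22.5% and 21.7% of all genes. On atglistatin 3 rose and 3 fell (median -0.08), beside 19% and 17.7%. The log2 fold changes of this list ran from -0.88 to 2.65 on the control diet and from -1.22 to 1.69 on atglistatin. The pericentral genes named next are among those that rose on the control diet. Fabp4, a fatty acid binding protein, ran from 9.16 to 20.0 CPM under vehicle and from 21.6 to 55.3 CPM under corticosterone (log2 fold change 1.34 ± 0.16). The liver cells in which Fabp4 rose were not tested. Thbd, thrombomodulin, had medians of 1.73 and 4.01 CPM (1.15 ± 0.17), and Lhx6 of 1.75 and 11.6 CPM (2.65 ± 0.20). All 3 fell with atglistatin under corticosterone (Lhx6 -0.91, Fabp4 -0.65, Thbd -0.63). In the periportal list 4 of 7 genes fell and none rose on each diet, among them Ltbp4 (-1.05 on the control diet), Dll4 (-0.74) and Msr1 (-1.21), which macrophages also express. Angptl4, Vegfa, Nrp1 and Tgfbr2 are also expressed by other liver cells, hepatocytes or stellate cells among them.

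**Figure D4:**
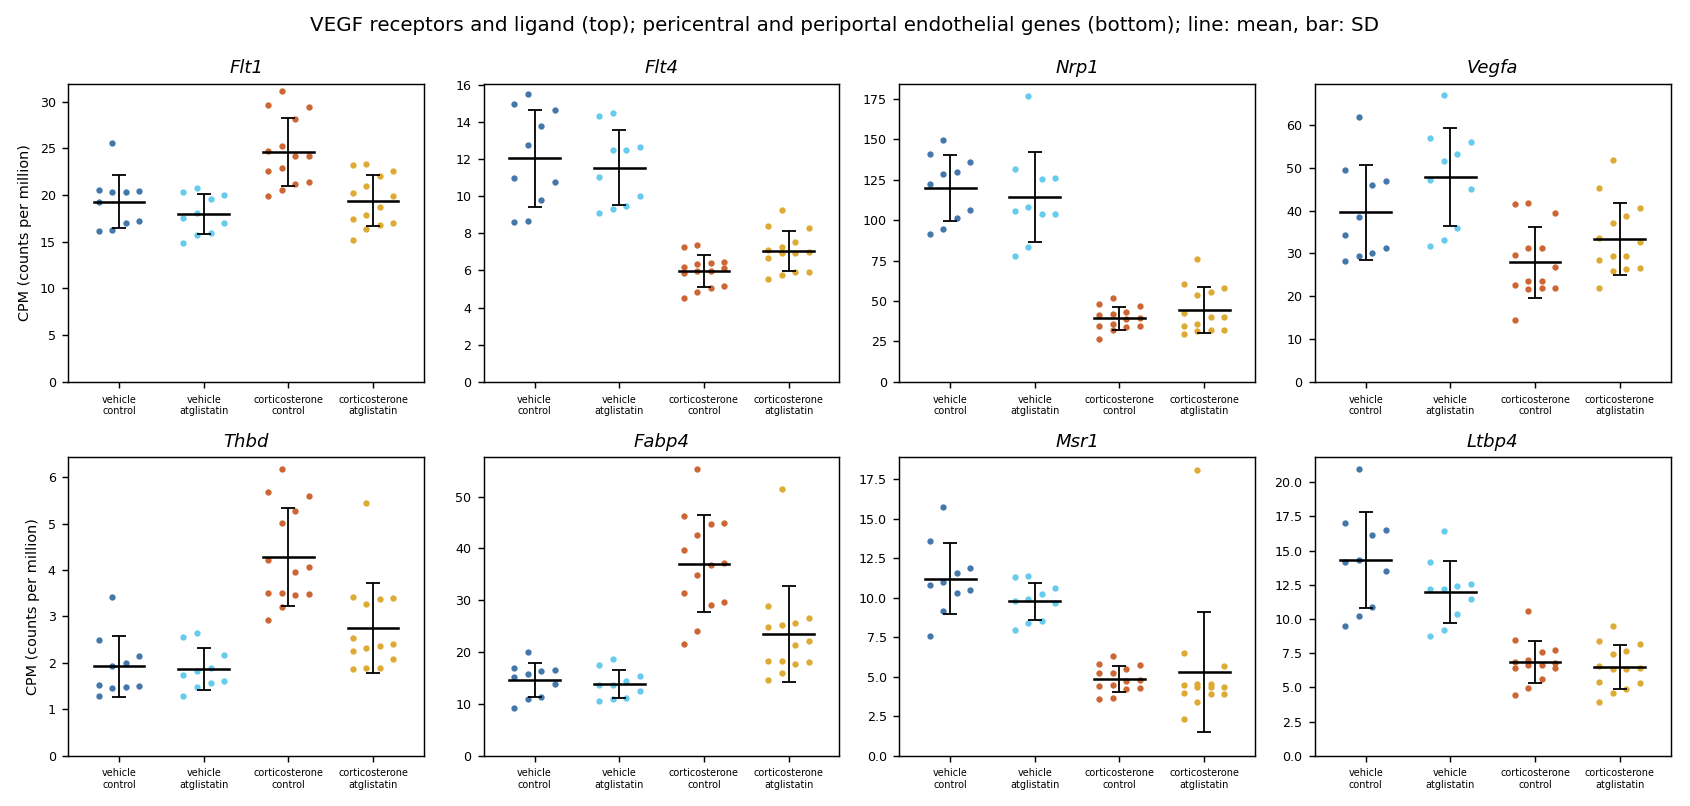
CPM (y axes, from 0) of VEGF pathway genes (top) and of pericentral and periportal genes (bottom) in each library by group (x axis), with mean and SD. Nrp1 does not overlap between vehicle and corticosterone livers on the control diet, and Fabp4 lies higher under corticosterone.

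Markers of other cells moved beside the 10 genes. Over all genes 21.7% fell and 22.5% rose with corticosterone on the control diet, and 17.7% fell and 19% rose on atglistatin. Of 18 Kupffer cell and macrophage markers, 14 fell and none rose on the control diet and 15 fell on atglistatin. Their summed level ran from 412 to 643 CPM (vehicle, control diet), 353 to 563 (vehicle, atglistatin), 179 to 333 (corticosterone, control diet) and 162 to 589 (corticosterone, atglistatin). Clec4f, a lectin of Kupffer cells, had medians of 37.4, 31.8, 16.1 and 12.4 CPM in these groups. The 6 tested leukocyte markers were lower on both diets, Ptprc falling by 2.39 on the control diet. Stellate and fibroblast markers were lower for 7 of 12 (1 higher) on the control diet and 6 of 12 on atglistatin. The summed levels of hepatocyte markers ran from 88504 to 134290 CPM in the vehicle control-diet livers and 115605 to 166460 CPM under corticosterone on that diet. On atglistatin they ran from 92049 to 116942 CPM under vehicle and from 101373 to 148553 CPM under corticosterone. No listed gene present in the count table was at 0 in a whole group. Listed genes absent from that table were not counted: it held 10 of the 16 leukocyte markers and 16 of the 20 large-vessel genes. The part of macrophage RNA in the falls of Mrc1, Fcgr2b, Stab1 and Pecam1 was not tested. Kdr is not on the macrophage list used here, and the cells its RNA came from were not tested either.

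Within groups the 10 markers varied only partly together. After the group mean was taken out, the 45 pairs of markers had Pearson correlations of log2 CPM from -0.501 to 0.747 over 48 libraries, with a median of 0.226, and 11 were negative. The libraries share depth and composition, so these are descriptions. Mrc1 followed the mean of the other 9 best (r = 0.732), Clec4g hardly at all (r = -0.09) and Lyve1 weakly (r = 0.223). The most negative pair was Lyve1 with Clec4g (r = -0.501). Outside the list, the genes most like the mean of the 10 markers by this measure were Tgfbi, a matrix protein (r = 0.72), Reln (0.714), Csf1r, the macrophage growth factor receptor (0.70), Man2b1 (0.685), Abca8b (0.667), Lyn (0.659), Akna (0.653), Pzp (0.649), Ptgs1 (0.649) and Slc43a2 (0.648). The median r was 0.471 over the 18 Kupffer cell markers, 0.291 over the 32 pan-endothelial genes and 0.26 over the 24 other sinusoidal endothelial genes. Over all genes it was 0.008.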

How the data were processed

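Liver RNA was profiled with Lexogen QuantSeq 3′ libraries and 50-base forward reads, per the labels' protocols. The deposited table of raw counts holds 14251 genes in 48 libraries, with GRCm38 as the build and R 3.6 and DESeq2 1.24.0 as tools per the submitters' processing notes. How reads were aligned, counted and assigned to a strand is not given in the sources used here, nor is the annotation. The authors also deposited normalized signal values. They are the counts over the DESeq2 size factor of each library (largest relative deviation 2.7e-15), and served only as a source of gene names. Names were taken from there for 12491 IDs and from GENCODE M21 for 1728.

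The filter filterByExpr, with a minimum count of 10 and a minimum total of 15, kept 12688 genes, and TMM factors scaled the libraries. All 48 libraries entered 1 edgeR 4.0.16 fit (R 4.3.3) with a mean per group, and each contrast was tested by quasi-likelihood, with Benjamini-Hochberg adjustment over all genes tested. The diabetic labels were compared in their own fit of 14 libraries and 12003 genes. A gene is called at an adjusted p of at most 0.05. Counts were put on a common scale as CPM, using each library's total times its TMM factor. The members, the gene lists and the rule for the genes named (all 10 members, up to 4 genes of each list with the smallest p on the control diet, defining markers, and the 10 most alike genes) were chosen with earlier results of these data known. Other settings were RLE factors (DESeq2 1.42.0), library totals, no filter, DESeq2, limma 3.58.1 voom with sample weights, only the groups compared, no libraries labelled diabetic, no libraries with Cpa1 above 20 CPM, a replicate block and leaving out each library. Replicates are libraries the labels list as separate samples, so p-values measure the spread between them. No pair within a group agreed within sampling noise (smallest chi-square per degree of freedom 6.27). On simulated counts for the control-diet contrast (12556 genes), 55.4% of 1.5-fold changes and 89.4% of 2-fold changes were recovered, and 7.1% of the calls were of unchanged genes, above the nominal 5%. For corticosterone on the atglistatin diet 80% of 1.5-fold changes were recovered with 5.85% false calls. For atglistatin these values were 65.7% with 4% under vehicle and 68.8% with 6.21% under corticosterone. For the interaction (12551 genes) 49.2% were recovered with 5.26% false calls, and for the diabetic labels (11894 genes) 43.9% with 2.7%. Each contrast was simulated in a single draw with far fewer changed genes than were called for corticosterone, so these rates do not carry over to the data. The insulin relations were permutation tests with 100000 resamples.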

Additional observations from a re-analysis of the deposited data

Results flagged for a closer look

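In 40 checks of a member in a group of 4 to 10 livers for a highest or lowest value far from the rest, 3 stood apart, where chance gives about 1 in 20 groups. The corticosterone control-diet group (14 livers) was checked only split by its diabetic and nondiabetic labels. The corticosterone atglistatin group (14 livers) was not checked. Lyve1 at 82.4 CPM in its replicate 41, the next highest being 26.3 CPM, was therefore not among the values checked. Clec4g was 36.7 CPM in vehicle atglistatin replicate 14, the next lowest being 48.4 CPM. Lyve1 was 52.2 CPM in the same liver, the next highest being 25 CPM. Lyve1 was also 57.2 CPM in corticosterone control-diet replicate 34, labelled diabetic, the next highest of the 9 diabetic livers being 35.7 CPM.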

How the results depend on the processing

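Of 440 values of single markers under 8 other settings, 401 kept direction and side of the threshold, 22 newly passed, 4 no longer passed and 13 changed sign. The count of 4 on the control diet became 7 with library totals and 7 with voom (6 lower, 1 higher). The count of 1 for atglistatin under corticosterone became 4 with voom, 0 with only the groups compared, 2 without the livers labelled diabetic and 0 without the libraries with Cpa1 above 20 CPM, and with library totals the 1 call was Kdr, higher. Leaving out 1 library gave 4 to 6 calls on the control diet, 6 to 9 on atglistatin, 0 to 3 for atglistatin under corticosterone, and 0 to 0 for atglistatin under vehicle, the interaction and the diabetic labels.

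The replicate numbers do not pair the livers: for atglistatin under vehicle, livers with the same number had correlated deviations of -0.117 to 0.036 (4 pairs), and on the atglistatin diet -0.044 and -0.018 (2 pairs). The replicate block gave 0 calls for atglistatin under vehicle and 0 for corticosterone on the atglistatin diet, where 4 libraries also gave 0 calls without the block. Lyve1 there was -0.33 with the block, and for atglistatin under vehicle Mrc1 was 0.0271, Kdr 0.0606 and Clec4g 0.14.

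Members that did not pass changed sign under some settings. With library totals Eng on the control diet was -0.10, Kdr and Pecam1 for atglistatin under vehicle 0.0579 and 0.0482, and Clec4g 0.076 for atglistatin under corticosterone and -0.0261 for the diabetic labels. With voom Kdr was 0.0055 for atglistatin under vehicle and 0.0247 for the diabetic labels, and Clec4g -0.0409 for the interaction. Without the livers labelled diabetic, Stab1, Stab2 and Oit3 on the control diet were 0.0235, 0.0024 and 0.0038. Without the Cpa1 libraries Kdr was 0.0405 for atglistatin under vehicle and Clec4g -0.0056 for the diabetic labels. Leaving out 1 library, Eng ran from -0.0327 to 0.0553 on the control diet and from -0.0002 to 0.12 for atglistatin under vehicle, Kdr from -0.0407 to 0.0283 and Pecam1 from -0.0912 to 0.0099 for that contrast, Clec4g from -0.0225 to 0.0657 for the interaction and from -0.0515 to 0.12 for the diabetic labels, and Lyve1 from -0.34 to 0.20 for the interaction. The cause was not tested. With 69 to 1388 counts per marker and library, the SE of the log2 fold change on the control diet ran from 0.08 (Clec4g) to 0.25 (Lyve1).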

Other observations

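The labels give an insulin value for each liver, and its relation to the markers was computed within groups after the values had been seen. Pearson r was taken between log2 insulin and log2 CPM. Of 40 relations (10 markers in 4 groups), 0 passed adjustment by Pearson or Spearman, 6 had an unadjusted Pearson p of at most 0.05 and 28 were negative. In the corticosterone control-diet group, replicates 27, 28, 29, 30, 35, 36, 37, 46 and 50 had insulin values between 36.7 and 39.8. The other livers of that group ran from 9.31 to 29.3, so most of its spread in insulin came from them. The smallest p was that of Oit3 in the corticosterone control-diet group (n = 14, r = -0.73, permutation p = 0.00253, adjusted p = 0.0779; rho = -0.50, p = 0.0767), and r was -0.45 without the 2 livers farthest from the median insulin. In the same group Stab1 (r = -0.70, permutation p = 0.00611; rho = -0.45, p = 0.108) and Pecam1 (r = -0.70, permutation p = 0.00779; rho = -0.44, p = 0.117) had r = -0.28 and -0.23 without those 2, so these relations rest on them. Mrc1 there had r = -0.62 (permutation p = 0.0152; rho = -0.49, p = 0.0814) and -0.54 without them. Lyve1 in that group had r = -0.67 (permutation p = 0.0108; rho = -0.48, p = 0.0877) and -0.72 without those 2. In the corticosterone atglistatin group Lyve1 had r = -0.71 (permutation p = 0.00559; rho = -0.60, p = 0.0276), and -0.46 without the 2 farthest.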
